A study of Sus scrofa with 30 samples.

Results

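The genes described here are 50 genes of cell division and DNA replication, named by symbol and grouped by what their products do. They were chosen with earlier results of these data known. Their levels were followed in the sow mammary gland at 5 stages of the lactation cycle. For each gene, the values of all its reference transcripts (RefSeq, pig genome Sscrofa11.1) were added. The table held reference transcripts of 49 of the 50 genes, with 116 transcripts in all, among 26012 genes and assembled loci. ECT2, an activator of the GTPase that drives the cleavage furrow, was not analysed here. Of the 49 genes, 48 lay on 17 chromosomes, with at most 6 on any of them (chromosome 14), and MCM5 lay on an unplaced sequence.

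Parenchyma was taken from multiparous Danish Landrace × Yorkshire sows that shared a parent, with different sows at each stage and no further treatment. The stages were mid-gestation (MG, day 70 of gestation), late gestation (LG, day 110), early lactation (EL, day 2 postpartum), peak lactation (PL, day 10 postpartum) and, on day 2 after weaning, the start of involution (W2). Each stage had 6 labelled samples. In the sample records, those titled EL carry mid-gestation in their stage field and those titled MG carry early lactation, and the titles were followed. Levels are given in the units of the deposited table, which are scaled to transcript length and whose total in a sample was 997480 to 1002643, close to the fixed total of TPM.

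A cell that divides copies its DNA from licensed origins, where the MCM helicase is loaded and fired with CDC45 and GINS and is followed by PCNA, the sliding clamp of the polymerases. Cyclins with CDK1 then drive entry into mitosis, the kinetochore and spindle genes attach and move the chromosomes, and the anaphase promoting complex ends mitosis by marking cyclins and securin for destruction. In the mammary gland, the epithelium is known to proliferate through pregnancy to build ducts and alveoli, and to turn to secretion in lactation. Many of these genes are transcribed in waves of the cell cycle, under E2F factors at the start of DNA synthesis and under FOXM1 and MYBL2 before mitosis.

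In every stage, 3 of the 6 samples were near copies of the mean of the other 3. Any pair among them differed by a median of at most 1.85%, against at least 19.5% between any pair of the others, and their mean lay within 0.741% of the mean of the others. Only the other 3 samples were counted, so n = 3 sows per stage. Sample PL 2 stood apart, with its 20 highest transcripts taking 59.9% of all units, against 25.6% to 43.0% in the other 14 counted samples. Epithelial, stromal and milk genes were present at every stage, and no marker gene of the 8 cell type lists that the table held was at 0 in all counted samples. The summed level of 6 milk genes was 11906 to 29461 units in the samples titled MG, 63857 to 120785 in those titled EL, 91237 to 285004 in PL and 5781 to 8140 in W2. The samples titled EL thus held more milk transcripts than those titled MG, without overlap, which is the order that the titles give.

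The cell division genes stood highest in MG and W2, lower in LG and EL, and lowest in PL. Added over the 49 genes, their level was 885 ± 126 units in MG and 848 ± 207 in W2 (SD, n = 3), with 593 ± 58.6 in LG and 539 ± 64.2 in EL between these and the 181 ± 14.8 of PL. PL had the lowest stage mean for 47 of the 49 genes, and the highest stage mean fell to MG for 30 genes and to W2 for 16. For 45 genes the mean of MG lay above those of both LG and EL, which in turn lay above that of PL, and W2 also lay above PL. The exceptions were MCM4, MCM5, NUSAP1 and MKI67. With each gene set relative to its own MG mean (48 genes, without MCM5, which was listed at 0 in MG), the median gene stood at 66.9% ± 5.68 for LG (SD, n = 3), 59.7% ± 3.97 for EL, 14.5% ± 2.66 for PL and 95.9% ± 24.9 for W2. Over all genes and loci with a mean of at least 1 unit, the same medians were 89.7% for LG, 74.4% for EL, 60.3% for PL and 107% for W2. In this bulk tissue, fewer dividing cells and less RNA per cell cannot be told apart.

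**Figure D1:**
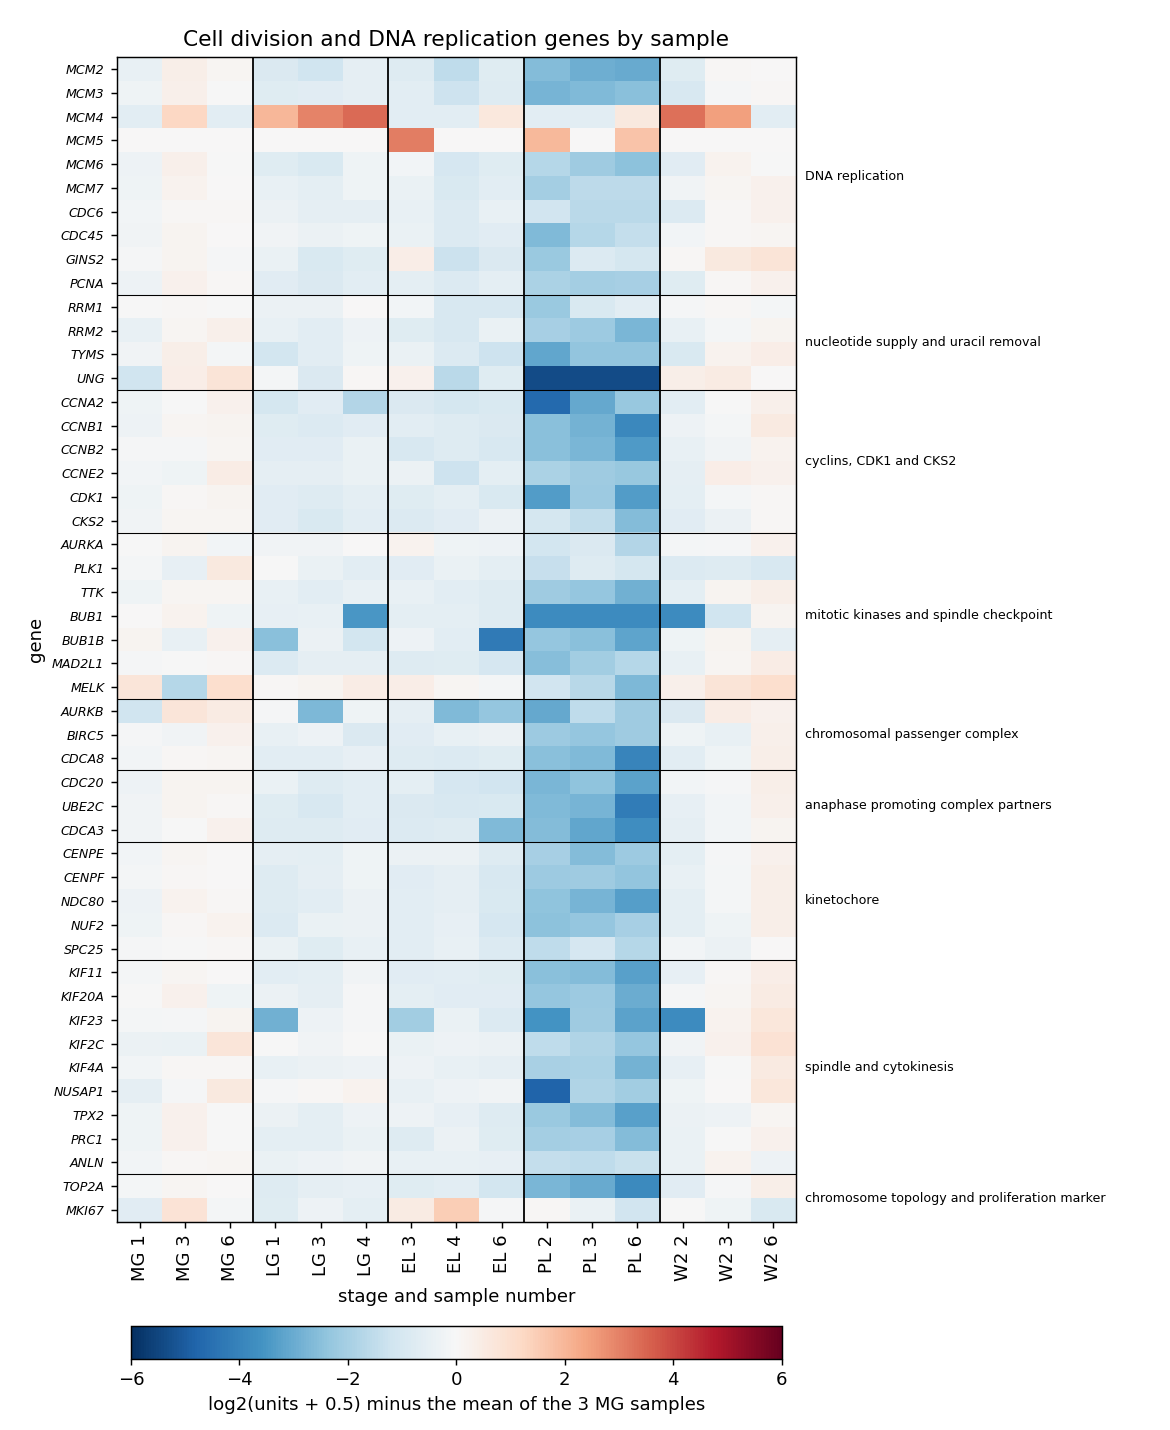
Level of each of the 49 genes in the 15 counted samples, as log2(units + 0.5) minus the gene's mean over the 3 MG samples, with columns ordered by stage and rows by gene group. The 3 PL columns are blue for nearly every gene, UNG and BUB1 are listed at 0 in all 3 PL samples, and MCM4, MCM5 and MKI67 do not follow the shape of the rest.

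Differences between stages were tested on log2(units + 0.5) with limma over all 26012 features, with Benjamini-Hochberg adjustment and a threshold of 0.05, and fold changes are on that log2 scale. Among the 5 stages, 38 of the 49 genes differed by the F test, against 18.3% of all features. From MG to PL, 44 of 49 fell and none rose, against 23% of all features that fell and 2.23% that rose. From EL to PL, 35 fell and none rose, against 3.85% of all features that fell and 0.777% that rose. From PL to W2, 42 rose and none fell, against 30.4% of all features that rose and 2.48% that fell. The median log2 fold change of the 49 genes was −2.26 in PL vs MG, −1.72 in PL vs EL and 2.18 in W2 vs PL, where the medians of all features were −0.57, −0.22 and 0.68.

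The total of the units is set for each sample, and the median of all features moved between stages. Scaling each sample by its median ratio brought the median of all features to −0.05 in PL vs MG and 0.09 in W2 vs PL. With that scaling, 37 genes fell in PL vs MG, 30 fell in PL vs EL and 34 rose in W2 vs PL, and no gene was called in the opposite direction. The median log2 fold changes of the 49 genes were then −1.78, −1.41 and 1.66. The same scaling moved the share of lower features among all those called in PL vs MG from 91.2% to 54.2%, in PL vs EL from 83.2% to 51.7%, and in W2 vs PL from 7.54% to 43.3%. Without sample PL 2, 41 genes fell in PL vs MG, 36 fell in PL vs EL and 41 rose in W2 vs PL. The share of lower features among all those called was then 81.4%, 50.6% and 14.5%. The shares of all features given earlier belong to the unscaled fit of all 15 counted samples. They are no background for the counts with scaling or without PL 2, for which such shares are not given.

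The samples themselves rarely overlapped across PL. In 37 of 49 genes, all 3 PL samples lay below all 12 counted samples of the other stages, which held for 11.3% of all features. Against MG alone the samples were separate and lower in PL for 45 genes (35.9% of all features), and against EL alone for 41 (15.8%). W2 lay wholly above PL in 43 genes, where 40.6% of all features did the same.

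**Figure D2:**
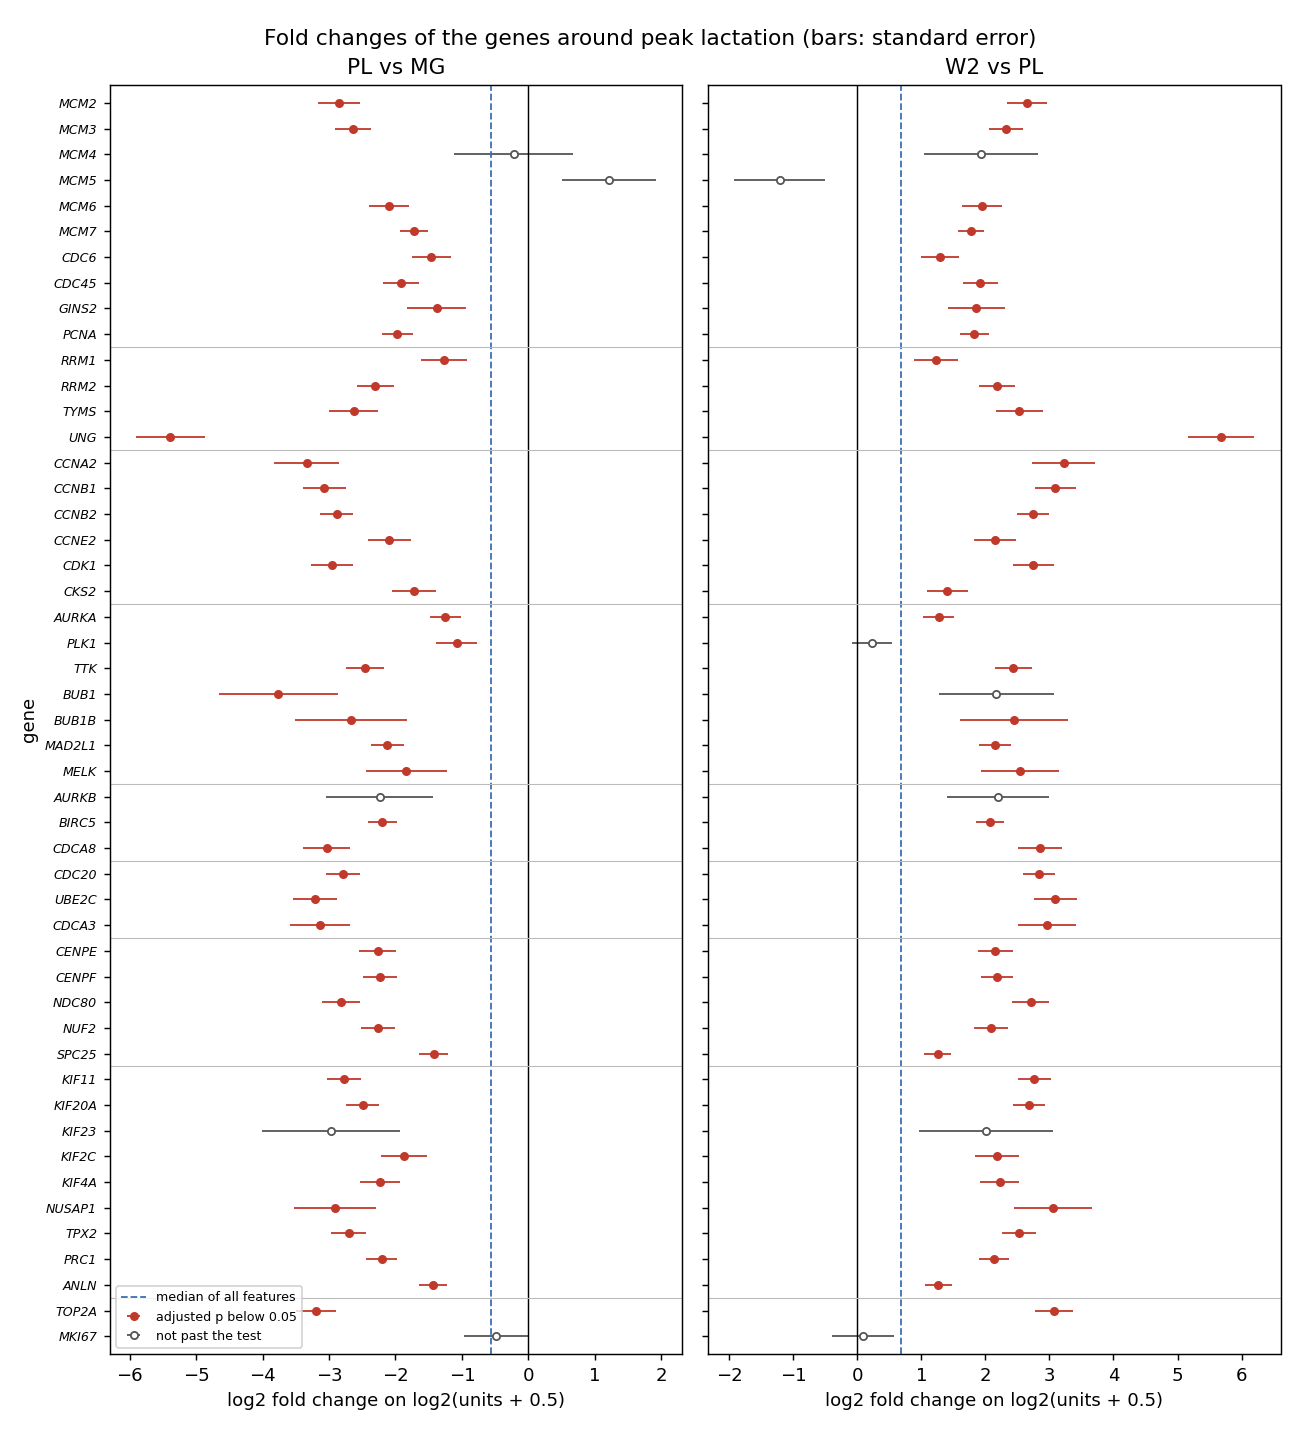
Fitted log2 fold changes of the 49 genes in PL vs MG and W2 vs PL with their standard errors, filled where the adjusted p was below 0.05, with the median of all features as a dashed line at −0.57 and 0.68. In PL vs MG 44 genes are filled, all below 0, and in W2 vs PL 42 are filled, all above 0, while the open points of MCM4, MCM5 and MKI67 lie near 0 or have wide errors. With median ratio scaling 37 and 34 genes were called, in the same directions.

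Of the 10 genes of DNA replication, 8 fell from MG to PL, 8 rose from PL to W2 and 6 fell from EL to PL. MCM2 to MCM7 encode the 6 subunits of the replicative helicase ring. MCM7 stood at 48.3, 67.0 and 59.7 units in the 3 MG samples, 13.6, 19.4 and 19.3 in PL and 49.4, 63.3 and 70.2 in W2. The lowest MG or W2 sample was more than double the highest PL sample. MCM6 stood at 36.0, 54.5 and 43.4 units in MG and 13.0, 9.71 and 7.64 in PL. MCM3 stood at 18.3, 26.9 and 21.4 units in MG and 2.76, 3.10 and 3.47 in PL. MCM2 stood at 11.4, 20.1 and 17.2 units in MG and 2.22, 1.62 and 1.49 in PL. None of these 4 subunits had overlapping samples in MG and PL.

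In PL vs MG the log2 fold change was −2.86 ± 0.32 (SE) for MCM2 (adjusted p = 0.000181), −2.64 ± 0.27 for MCM3 (adjusted p = 0.00012), −2.10 ± 0.31 for MCM6 (adjusted p = 0.000813) and −1.72 ± 0.21 for MCM7 (adjusted p = 0.000287). The level of MCM2 relative to MCM7 was 0.237 to 0.300 in the MG samples, 0.0772 to 0.163 in PL and 0.189 to 0.263 in W2, and that of MCM3 relative to MCM7 was 0.359 to 0.402, 0.159 to 0.203 and 0.224 to 0.330. PL lay below MG and W2 in both ratios, without overlap and with no test. The level of MCM6 relative to MCM7 did overlap, at 0.727 to 0.813 in MG, 0.397 to 0.955 in PL and 0.555 to 0.812 in W2. MCM7 was read from 3 reference transcripts, and the 2 highest traded places between samples. In MG 1 they stood at 41.4 and 6.9 units, and in MG 3 at 15.7 and 40.8, while their sum was steadier. With only the highest transcript of MCM7 its log2 fold change was −1.22 and its adjusted p was 0.0924.

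The other helicase subunits had low values or were listed at 0. MCM4 was listed at 0 in MG 1 and MG 6, at 1.35 units in MG 3, at 2.55, 5.54 and 7.71 in LG, at 0, 0 and 0.711 in EL, at 0, 0 and 0.670 in PL and at 7.23, 3.70 and 0 in W2. MCM5 was listed at 0 in 12 of the 15 samples and stood at 3.76 units in EL 3, 1.41 in PL 2 and 1.13 in PL 6. Each was read from a single reference transcript, and neither passed the test in PL vs MG, with an adjusted p of 0.896 for MCM4 and 0.232 for MCM5. Assembled transcripts of these genes were not assigned to them, so their levels here may be only part of the gene's output.

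PCNA was the highest of the 49 genes, at 82.2, 122 and 106 units in MG, 27.0, 24.5 and 25.7 in PL and 61.5, 106 and 121 in W2. Its 3 PL samples lay close together and far below the rest. CDC45, which joins the helicase when origins fire, averaged 14.6 ± 1.80 units in MG (SD, n = 3), 3.75 ± 1.64 in PL and 14.7 ± 1.68 in W2. In PL 2, 1.88 of its 1.93 units came from a non-coding reference transcript. GINS2, a subunit of the 4-part GINS complex of the same helicase, averaged 5.05 ± 0.54 units in MG, 1.80 ± 1.01 in PL and 7.35 ± 1.83 in W2, and was not past the test in PL vs EL. CDC6, which helps to load the helicase, was low throughout, with 1.95 ± 0.22 units in MG and 0.397 ± 0.17 in PL, and it too was not past the test in PL vs EL.

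The 4 genes of nucleotide supply and uracil removal all fell from MG to PL and all rose from PL to W2. TYMS, the enzyme that makes thymidylate, stood at 60.3, 90.9 and 65.0 units in MG, 7.63, 13.3 and 13.3 in PL and 37.6, 82.9 and 92.3 in W2. W2 2 was the lowest W2 sample and still stood well above every PL sample. Ribonucleotide reductase makes the deoxynucleotides, and its subunits differed. RRM2, the small subunit, averaged 10.6 ± 2.77 units in MG and 1.77 ± 0.58 in PL, while RRM1, the large subunit, averaged 49.3 ± 2.39 in MG and 22.3 ± 10.8 in PL. RRM1 stood at 10.2 units in PL 2 but at 25.5 and 31.1 in the other PL samples, which overlapped EL (25.0, 25.4 and 44.3), and it was not past the test in PL vs EL.

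UNG, the glycosylase that removes uracil from DNA, was listed at 0 in a whole stage. It stood at 8.67, 27.3 and 35.6 units in MG, 19.0, 10.9 and 21.5 in the LG samples, 24.8, 6.30 and 12.1 in EL and 26.4, 29.4 and 20.5 in W2, and all 3 PL samples were at 0. No fold change is given against a stage listed at 0. UNG was read from a single reference transcript at chromosome 14, 41746498 to 41757841, and passed the test in PL vs MG (adjusted p = 0.000102), PL vs EL (adjusted p = 0.000725) and W2 vs PL (adjusted p = 5.73e-05). The study singled out TOP2A, CCNB1 and CDCA8 as hubs of a co-expression module, and discussed UNG, from these same samples, so their patterns are not independent evidence for that choice. The study also measured UNG by RT-qPCR at all stages, among other transcripts, and reported high concordance with its RNA-seq values over the set. Those RT-qPCR values of UNG were not compared here.

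All 6 cyclin and CDK genes fell from MG to PL and rose from PL to W2, and 5 of them fell from EL to PL. CCNB1, the mitotic cyclin B1, stood at 18.0, 24.3 and 25.2 units in MG, 13.1, 12.5 and 13.6 in the LG samples, 14.1, 12.7 and 12.1 in EL, 3.52, 2.73 and 1.04 in PL and 17.8, 20.3 and 32.3 in W2. LG and EL were tight and lay between the other stages without touching MG, PL or W2. CCNB1 had a log2 fold change of −3.07 ± 0.32 (SE, adjusted p = 0.000137) in PL vs MG and 3.09 ± 0.32 (adjusted p = 0.000116) in W2 vs PL. CCNB2, its near relative, stood at 10.3, 10.4 and 11.9 units in MG, 1.48, 1.18 and 0.580 in PL and 7.89, 9.39 and 12.5 in W2. The log2 fold change of CCNB2 was −2.89 ± 0.25 (adjusted p = 5.19e-05) in PL vs MG, the lowest adjusted p of the set in that comparison, with −1.98 ± 0.25 (adjusted p = 0.00152) in PL vs EL and 2.74 ± 0.25 (adjusted p = 5.26e-05) in W2 vs PL.

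CDK1, the kinase that both B cyclins activate, stood at 3.68, 4.89 and 5.23 units in MG and 2.88, 4.23 and 4.76 in W2, and was listed at 0 in 2 PL samples with 0.604 in the third. The level of CCNB1 was 4.82 to 4.97 times that of CDK1 in the MG samples, 4.68 to 5.02 times in LG and 4.80 to 6.80 times in W2. The 2 genes thus kept close to a fixed ratio in MG and LG, and the ratio could be formed in only 1 PL sample, where it was 4.52. CCNA2, the cyclin of S phase and G2, stood at 10.1, 11.9 and 14.4 units in MG and at 0, 0.980 and 2.06 in PL. CCNE2, a cyclin of the G1 to S transition, averaged 3.34 ± 1.05 units in MG (SD, n = 3) and 0.383 ± 0.12 in PL. CKS2, a small subunit of CDK complexes, kept more of its level, with 63.1 ± 7.66 units in MG and 20.5 ± 9.93 in PL, and did not pass the test in PL vs EL.

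**Figure D3:**
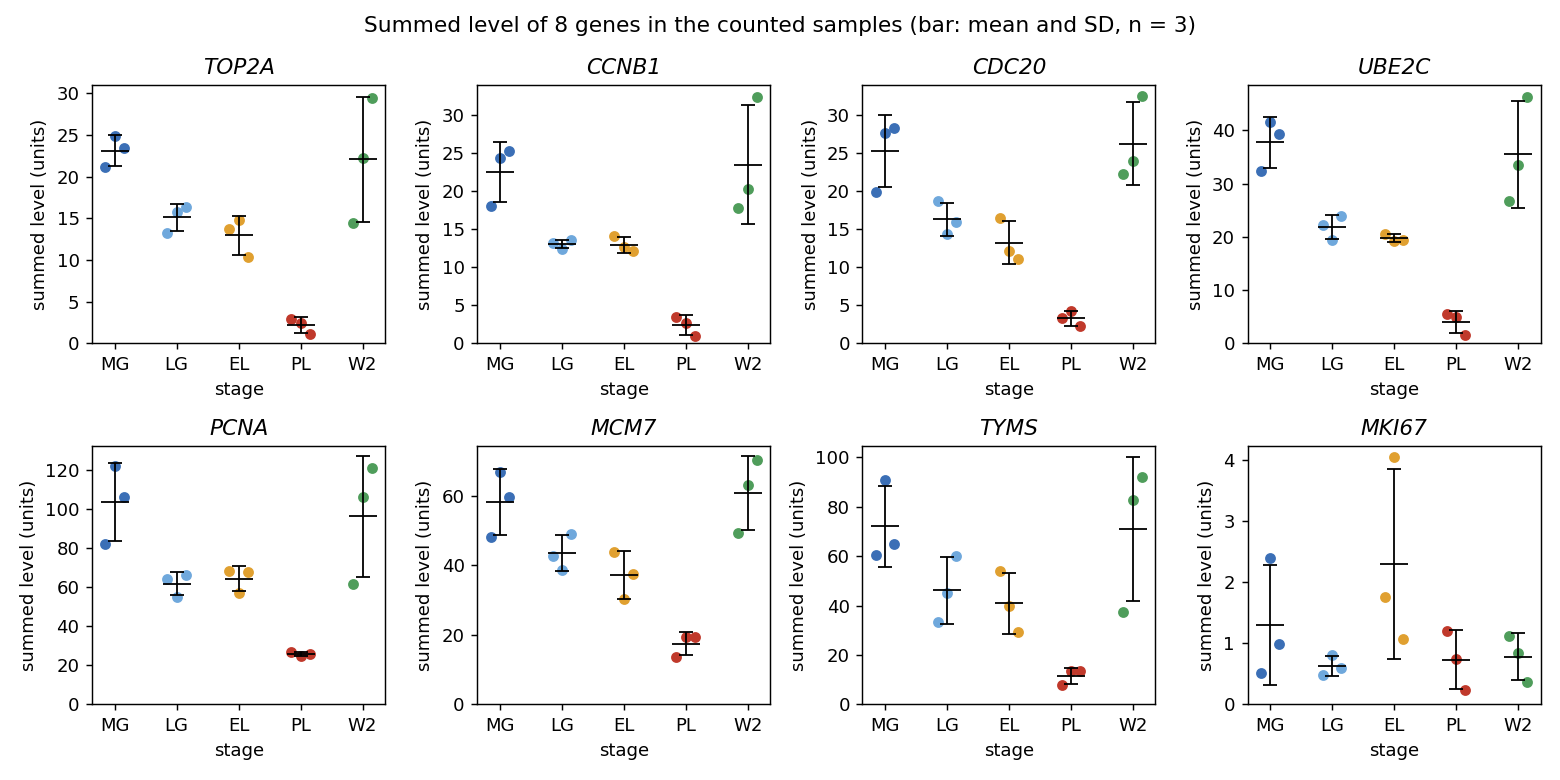
Summed level in units of 8 genes in the counted samples of the 5 stages, with points for samples and bars for the mean and SD (n = 3), each panel on its own axis from 0. TOP2A, CCNB1, CDC20, UBE2C, PCNA, MCM7 and TYMS drop to their lowest in PL and stand near the MG level again in W2, while MKI67 reaches at most 4.04 units in any sample and its PL samples overlap those of the other stages.

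Of the 7 mitotic kinases and spindle checkpoint genes, all 7 fell from MG to PL, 3 fell from EL to PL and 5 rose from PL to W2. MAD2L1, which holds back anaphase until chromosomes are attached, stood at 22.9, 24.1 and 26.0 units in MG, 3.70, 5.40 and 6.95 in PL and 17.5, 26.2 and 33.5 in W2. TTK, the kinase at the head of that checkpoint, averaged 4.57 ± 0.72 units in MG (SD, n = 3), 0.440 ± 0.24 in PL and 4.64 ± 1.60 in W2. AURKA, the kinase of spindle poles, moved less, with 12.3 ± 1.57 units in MG, means of 11.2 for LG and 11.5 for EL, 5.02 ± 1.58 units in PL and 12.5 ± 1.96 in W2. MELK, a kinase high in dividing cells, averaged 3.81 ± 2.95 units in MG, where MG 3 stood at only 0.479, and 0.498 ± 0.48 in PL.

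Other genes of this group were uneven within stages. BUB1 was listed at 0 in all 3 PL samples, but also at 0 in W2 2 and at 0.106 units in LG 4, and it stood at 6.44, 7.50 and 5.17 units in MG. BUB1 did not pass the test in W2 vs PL or PL vs EL. BUB1B, a further checkpoint kinase, stood at 10.2, 6.46 and 10.7 units in MG and 1.37, 1.15 and 0.556 in PL, but was listed at 0 in EL 6. PLK1, a kinase needed through much of mitosis, was read from a single non-coding reference transcript at 0.716, 0.443 and 1.48 units in MG and 0, 0.266 and 0.132 in PL, and it stayed at 0.247, 0.257 and 0.185 in W2. It was the only gene of the set with an unadjusted p below 0.05 in W2 vs MG (log2 fold change −0.85, unadjusted p = 0.0171, adjusted p = 1, with 3.09% of all features below 0.05 unadjusted).

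The chromosomal passenger complex corrects the attachments of chromosomes, and 2 of its 3 genes measured here fell from MG to PL and from EL to PL and rose from PL to W2. BIRC5, or survivin, stood at 32.6, 29.8 and 41.2 units in MG, 7.26, 6.55 and 7.37 in PL and 29.0, 24.9 and 41.9 in W2. The log2 fold change of BIRC5 was −2.20 ± 0.22 (SE, adjusted p = 0.000113) in PL vs MG and −1.72 ± 0.22 (adjusted p = 0.00161) in PL vs EL. CDCA8, or borealin, stood at 11.1, 13.2 and 13.9 units in MG, 1.85, 1.59 and 0.344 in PL and 7.97, 10.5 and 16.3 in W2. CDCA8 had a log2 fold change of −3.04 ± 0.35 (adjusted p = 0.000223) in PL vs MG and 2.85 ± 0.35 (adjusted p = 0.00023) in W2 vs PL. AURKB, the kinase of the complex, stood at 1.70, 7.76 and 6.51 units in MG, 0.101, 1.27 and 0.637 in PL and 2.29, 6.39 and 5.58 in W2. Its samples overlapped those of EL and LG, and it missed the threshold in PL vs MG and W2 vs PL.

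The 3 partners of the anaphase promoting complex fell in PL vs MG and PL vs EL and rose in W2 vs PL. CDC20, its activator, stood at 19.9, 27.7 and 28.3 units in MG, 3.30, 4.31 and 2.23 in PL and 22.2, 23.9 and 32.4 in W2. The stages did not overlap across PL. CDC20 had a log2 fold change of −2.79 ± 0.25 (SE, adjusted p = 8.03e-05) in PL vs MG, −1.88 ± 0.25 (adjusted p = 0.00216) in PL vs EL and 2.84 ± 0.25 (adjusted p = 4.82e-05) in W2 vs PL, the lowest adjusted p of the set in that comparison. With its highest transcript alone CDC20 missed the threshold in PL vs EL (adjusted p = 0.248). UBE2C, its ubiquitin-conjugating enzyme, stood at 32.5, 41.6 and 39.3 units in MG, 5.54, 5.01 and 1.61 in PL and 26.7, 33.5 and 46.3 in W2. CDCA3, which triggers mitotic entry, averaged 12.5 ± 2.26 units in MG (SD, n = 3) and 1.04 ± 0.59 in PL, and EL 6 at 1.57 units overlapped PL. In PL, CDCA3 was read from only 1 of its 2 reference transcripts. The other, the higher in all samples outside PL, was listed at 0 there.

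All 5 kinetochore genes fell from MG to PL and rose from PL to W2, and 4 fell from EL to PL. NDC80, the subunit that grips microtubules, stood at 7.38, 10.5 and 9.74 units in MG, 5.72, 6.02 and 4.66 in EL, 1.30, 0.913 and 0.486 in PL and 5.97, 8.33 and 11.7 in W2. NDC80 had a log2 fold change of −2.13 ± 0.29 (SE, adjusted p = 0.00221) in PL vs EL. NUF2, its partner, averaged 14.4 ± 2.34 units in MG (SD, n = 3) and 2.61 ± 0.54 in PL, and SPC25 of the same 4-part complex averaged 10.6 ± 0.49 and 3.72 ± 1.09. SPC25 thus stood at 35.0% of its MG mean in PL, against 9.76% for NDC80. The ratio of SPC25 to NDC80 was 1.01 to 1.38 in MG, 0.920 to 1.57 in W2 and 2.55 to 5.97 in PL, so that PL lay apart, with no test. The ratio of NUF2 to NDC80 overlapped, at 1.43 to 1.69 in MG and 1.68 to 6.63 in PL. In PL, NDC80 and NUF2 were each read from only 1 of their 2 reference transcripts. The other transcript, the higher in all samples outside PL, was listed at 0 there, so these ratios compare different transcripts at low levels. SPC25 was read from 4 reference transcripts, and its highest stood at 8.16, 9.20 and 11.2 units in MG and 1.25, 2.36 and 1.46 in PL. The rest of its PL level came from 2 transcripts that were listed at 0 in most samples outside PL. SPC25 missed the threshold in PL vs EL (adjusted p = 0.0563). CENPE, a kinetochore motor, averaged 3.79 ± 0.39 units in MG and 0.401 ± 0.19 in PL, and CENPF, a protein of the outer kinetochore, 4.54 ± 0.33 and 0.571 ± 0.085.

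Of the 9 spindle and cytokinesis genes, 8 fell from MG to PL, 8 fell from EL to PL and 8 rose from PL to W2, and the exception in each was KIF23. KIF11, the motor that pushes spindle poles apart, stood at 9.70, 11.6 and 10.9 units in MG, 1.49, 1.37 and 0.687 in PL and 7.59, 11.1 and 14.3 in W2. KIF11 had a log2 fold change of −2.77 ± 0.26 (SE, adjusted p = 9.55e-05) in PL vs MG, −2.09 ± 0.26 (adjusted p = 0.00152) in PL vs EL and 2.77 ± 0.26 (adjusted p = 6.32e-05) in W2 vs PL. KIF20A, a motor of the midzone, stood at 10.3, 12.3 and 8.60 units in MG, 1.64, 1.89 and 0.884 in PL and 9.78, 11.4 and 14.8 in W2. KIF20A had a log2 fold change of −2.49 ± 0.25 (adjusted p = 0.000113) in PL vs MG and 2.68 ± 0.25 (adjusted p = 6.25e-05) in W2 vs PL. Nearly all of its PL sum came from 1 transcript that was low in most other samples, at 1.46, 1.81 and 0.884 units. With the highest transcript of KIF20A alone, these log2 fold changes were −4.02 and 4.14.

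TPX2, which activates AURKA on the spindle, was read from 17 reference transcripts, the most of any gene here. Its sum stood at 13.3, 19.7 and 16.1 units in MG, 3.00, 2.22 and 1.25 in PL and 12.4, 13.0 and 17.8 in W2. Nearly all of the PL sum came from 1 transcript, at 2.82, 2.00 and 1.25 units. That transcript was listed at 0 in every counted MG, EL and W2 sample. TPX2 had a log2 fold change of −2.70 ± 0.26 (SE, adjusted p = 0.000105) in PL vs MG, −2.19 ± 0.26 (adjusted p = 0.00133) in PL vs EL and 2.52 ± 0.26 (adjusted p = 0.000118) in W2 vs PL. PRC1, a bundler of midzone microtubules, averaged 14.0 ± 2.46 units in MG (SD, n = 3) and 2.66 ± 0.71 in PL. KIF2C, a microtubule depolymerase, averaged 5.64 ± 2.99 and 1.10 ± 0.43, and KIF4A, a chromosome motor, 4.84 ± 0.45 and 0.685 ± 0.38. ANLN, a scaffold of the cleavage furrow, kept the most of its level in this group, with 4.62 ± 0.52 units in MG and 1.40 ± 0.14 in PL.

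NUSAP1, a spindle-associated protein, did not share the drop from MG to LG, with 9.28, 12.9 and 20.6 units in MG and 12.8, 14.4 and 15.9 in LG, before 0, 3.49 and 2.76 in PL. KIF23, a motor needed to finish cytokinesis, stood at 7.72, 8.02 and 9.32 units in MG and 0.242, 1.52 and 0.460 in PL, but also at 0.692 in LG 1 and 0.142 in W2 2. Its adjusted p in PL vs MG was 0.0543, short of the threshold.

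TOP2A, the topoisomerase that untangles sister chromosomes, stood at 21.1, 24.8 and 23.4 units in MG, 13.3, 15.7 and 16.3 in the LG samples, 13.7, 14.8 and 10.3 in EL, 2.98, 2.41 and 1.18 in PL and 14.4, 22.2 and 29.5 in W2. The MG samples lay above all LG and EL samples, and all of these lay above PL. The log2 fold change of TOP2A was −3.19 ± 0.30 (SE, adjusted p = 9.2e-05) in PL vs MG, −2.37 ± 0.30 (adjusted p = 0.00152) in PL vs EL and 3.07 ± 0.30 (adjusted p = 7.12e-05) in W2 vs PL. MKI67, the gene of the Ki-67 protein that is widely stained to count cycling cells, stood at 0.504, 2.40 and 0.986 units in MG, 0.476, 0.807 and 0.592 in the LG samples, 1.75, 4.04 and 1.07 in EL, 1.20, 0.744 and 0.240 in PL and 1.12, 0.846 and 0.363 in W2. All stages but LG and EL overlapped one another. MKI67 had a log2 fold change of −0.49 ± 0.49 (adjusted p = 0.492) in PL vs MG and 0.09 ± 0.49 (adjusted p = 0.923) in W2 vs PL. Both directions turned under quantile normalization, where the values were 0.10 and −0.59. MKI67 was read from 2 reference transcripts, 1 of which was listed at 0 in most samples.

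The calls in PL vs EL depended on how it was fitted, with 35 genes called when the 5 stages shared an estimate of the spread, 2 when EL and PL were fitted alone and 23 without sample EL 3. Its calls that also reached an absolute log2 fold change of 2, the study's limit, numbered 11, against 0.627% of all features that fell past it. In PL vs MG and W2 vs PL the same limit left 31 genes each, against 3.03% of all features that fell and 4.16% that rose.

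Before PL the genes stood lower in LG than in MG, and none passed the test. In LG vs MG the log2 fold change was below 0 for 46 of 49 genes, with a median of −0.53 against −0.11 over all features. The LG samples lay wholly below the MG samples for 32 genes, against 11.4% of all features. Of all features, 0.0115% were called. By an unadjusted p below 0.05 limma called 14 genes, 13 of them lower, against 4.43% of all features and 3.28% that were lower. PCNA had the lowest unadjusted p, with 64.1, 54.9 and 66.0 units in LG, a log2 fold change of −0.73 ± 0.23 (SE) and an adjusted p of 1. MCM4 was the gene that was higher. In the fit of all 6 samples per stage, which counts the near copies, 30 genes were called.

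EL vs LG gave no call among the 49 genes either, with a lowest adjusted p of 0.694 by limma, against 0.0154% of all features called. Their median log2 fold change was −0.15, against −0.22 over all features. The EL samples lay wholly below LG for 9 genes, against 16% of all features. An unadjusted p below 0.05 was reached by MCM4 and MKI67, against 6.19% of all features.

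W2 vs MG likewise gave no call among the 49 genes, and 3 among all features (0.0115%). The median log2 fold change was −0.12 against 0.10 over all features, and 1 gene had W2 wholly below MG, against 2.21% of all features. The W2 samples were spread widely and in the same order for most genes. W2 2 was the lowest W2 sample for 40 of 49 genes and W2 6 the highest for 37, with summed levels of 628 and 1038 units. MG 1 was likewise the lowest MG sample for 37 genes. Relative to MG, the median of the division genes was 70.7% in W2 2, 96.4% in W2 3 and 121% in W2 6. Over all features with a mean of at least 1 unit it was 101%, 110% and 111%. MG 1 was also lowest there, at 92.5%, against 106% in MG 3 and 99.9% in MG 6. No share of all features was counted for these orders, and a shift of whole samples was not set apart from them. In PL, the lowest sample was PL 6 for 26 genes and PL 2 for 13, while over these features PL 2 had the lowest median, at 40.5%. PL 6 was lowest for 6 of the 9 spindle and cytokinesis genes and all 3 partners of the anaphase promoting complex, and PL 2 for 4 of the 10 DNA replication genes.

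By group, the median gene stood in PL at 10.2% ± 5.17 of its MG mean (SD, n = 3) for the partners of the anaphase promoting complex, 10.9% ± 3.86 for the cyclins, CDK1 and CKS2, 11.7% ± 4.91 for the mitotic kinases and checkpoint genes, 13.5% ± 1.52 for the kinetochore, 15.2% ± 5.85 for spindle and cytokinesis and 20.1% ± 5.76 for DNA replication. It stood at 15.1% ± 3.55 for the chromosomal passenger complex, 16.1% ± 1.94 for nucleotide supply and uracil removal, and 32.9% ± 20.6 for TOP2A with MKI67. The sample values of DNA replication were 13.7%, 21.8% and 24.8%, and those of the cyclin group 14.4%, 11.5% and 6.80%, so the groups overlapped and their order in PL was not tested.

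**Figure D4:**
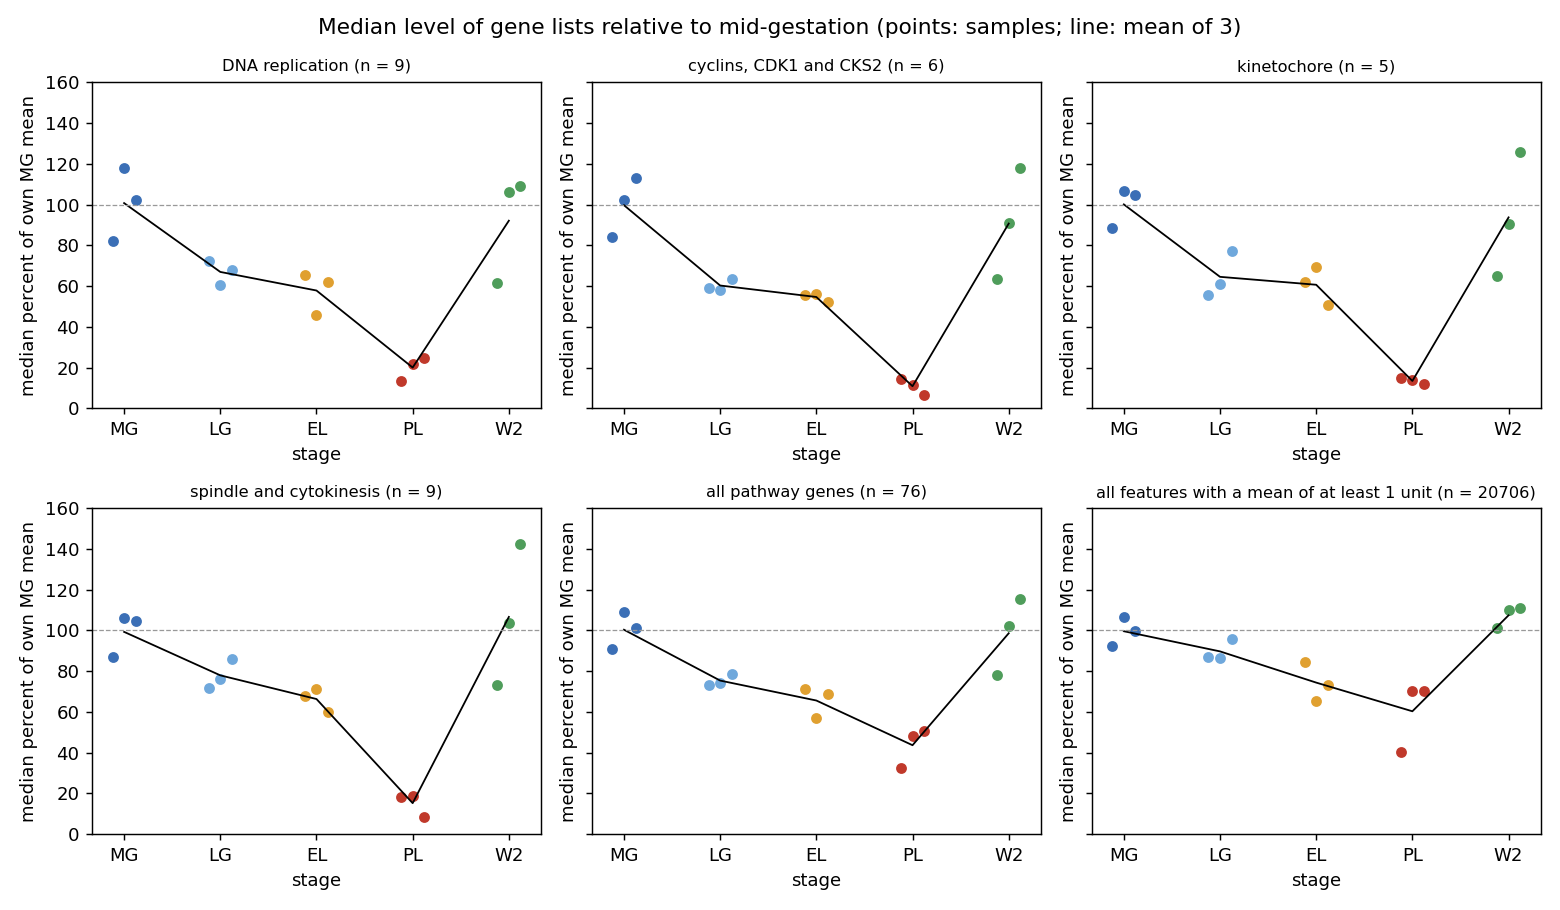
Median over each gene group of a sample's level as a percent of each gene's own MG mean, with points for the 3 counted samples of each stage and a line through their means. The 4 groups of division genes reach 6.8% to 24.8% in the PL samples, the further cell cycle genes 32.6% to 50.4%, and all features with a mean of at least 1 unit 40.5% to 70.2%.

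Most of the genes moved together across the 15 samples. Pearson's r of a gene's log2 level with the median profile of the other members was at least 0.9 for 35 of the 49 genes. Its median was 0.95, and it was highest for KIF11, NDC80 and TTK at 0.99. It was below 0.7 for AURKB, BUB1B, PLK1, MCM4, MKI67 and MCM5, all of which were low or listed at 0 in some samples. That did not set them apart. CDC6, CDK1, UNG and CENPE were also low or listed at 0 in some samples, with r of 0.94, 0.98, 0.95 and 0.97. These correlations are over samples that share stages and a fixed total, and each profile left out the gene itself. The share of all features that reach 0.9 with this profile was not computed. The median of all features with a mean of at least 1 unit also fell in PL, to 60.3% of MG, and stood at 107% in W2. The genes were chosen with earlier results of these data known.

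Outside the 49 genes, 77 of 79 listed genes of cell cycle control and replication were in the table. Of these, 42 fell from MG to PL, 13 fell from EL to PL, 42 rose from PL to W2 and none was called in the other direction in these comparisons. The shares of all features were 23%, 3.85% and 30.4%, and the counts of the smaller lists are to be read against these. The median log2 fold change of the 77 genes was −1.17 in PL vs MG and 1.03 in W2 vs PL, against −0.57 and 0.68 over all features, and their median level in PL was 43.7% ± 9.67 of MG (SD, n = 3).

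Among 10 transcription factors of the cell cycle, 5 fell from MG to PL. MYBL2, the B-Myb factor of late S phase and mitotic genes, stood at 11.5, 11.2 and 14.9 units in MG, 7.62, 7.78 and 7.19 in the LG samples, 7.55, 6.16 and 8.65 in EL, 0, 0.391 and 0 in PL and 6.67, 10.3 and 14.8 in W2. PL lay far below every other sample. The log2 fold change of MYBL2 was −4.42 ± 0.30 (SE, adjusted p = 1.37e-05) in PL vs MG and 4.13 ± 0.30 (adjusted p = 2.34e-05) in W2 vs PL, values that depend on the added 0.5 units. FOXM1, the factor of G2 and mitotic genes, stood at 2.66, 4.45 and 4.57 units in MG, 0, 0.654 and 0.471 in PL and 2.96, 3.47 and 4.71 in W2. FOXM1 had a log2 fold change of −2.38 ± 0.32 (adjusted p = 0.000527) in PL vs MG and 2.33 ± 0.32 (adjusted p = 0.000449) in W2 vs PL, but for its highest transcript alone the latter was 0.66 (adjusted p = 0.413). E2F1, an activator of S phase genes, was below 0.1 units in MG, at 6.65, 5.51 and 0 in LG, 0, 4.15 and 6.66 in EL and 1.79, 0.990 and 0.496 in PL, and did not pass the test in PL vs MG (adjusted p = 0.318).

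Of 7 G1 cyclins and kinases, CCND1, CDK4 and CDK6 fell from MG to PL (23% of all features) and rose from PL to W2 (30.4%). The median log2 fold change of the 7 was −0.74 in PL vs MG and 0.59 in W2 vs PL, against −0.57 and 0.68 over all features, so the list as a whole lay near the general shift. CCND1, cyclin D1, stood at 25.9, 55.0 and 31.1 units in MG, 7.23, 8.59 and 5.30 in PL and 31.5, 46.3 and 29.0 in W2, with a log2 fold change of −2.28 ± 0.33 (SE, adjusted p = 0.000751) in PL vs MG and 2.25 ± 0.33 (adjusted p = 0.000556) in W2 vs PL. CDK4, its kinase, averaged 124 ± 9.91 units in MG (SD, n = 3), 51.3 ± 8.43 in PL and 119 ± 10.1 in W2, with a log2 fold change of −1.27 ± 0.16 (SE, adjusted p = 0.000381) in PL vs MG. Of 6 CDK inhibitors, CDKN2C and CDKN2D fell from MG to PL and from EL to PL and rose from PL to W2, and no other inhibitor passed the test in these comparisons. CDKN1B, or p27, stood at 35.4, 39.9 and 40.0 units in MG and 18.5, 32.2 and 43.8 in PL, which overlapped, and its log2 fold change of −0.37 (adjusted p = 0.293) turned to 0.29 with median ratio scaling. CDKN1A, or p21, was listed at 0 in all W2 samples and in all MG samples but MG 1 (0.0297 units), and at 3.79, 2.67 and 0 in PL (PL vs MG, adjusted p = 0.0803).

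Of 14 genes of origin licensing and firing, 6 fell from MG to PL and 9 rose from PL to W2, and of 19 polymerases and fork proteins, 14 fell and 13 rose. ORC1, the largest subunit of the origin recognition complex, stood at 3.41, 5.45 and 6.14 units in MG and 3.28, 5.13 and 5.71 in W2, and was listed at 0 in all 3 PL samples (PL vs MG, adjusted p = 0.000344). Of 8 condensin and cohesin genes, 7 fell and 7 rose. RAD21, the cohesin subunit that is cut at anaphase, stood at 75.2, 84.1 and 83.3 units in MG, 30.7, 43.4 and 34.4 in PL and 80.4, 98.3 and 95.4 in W2, with a log2 fold change of −1.16 ± 0.15 (SE, adjusted p = 0.000378) in PL vs MG. Of 8 genes that control CDK1 or answer DNA damage, 4 fell from MG to PL and 3 rose from PL to W2, the latter close to the 30.4% of all features. WEE1, the kinase that restrains CDK1, averaged 18.7 ± 4.79 units in MG (SD, n = 3), 2.94 ± 0.18 in PL and 22.0 ± 5.94 in W2, with a log2 fold change of −2.45 ± 0.28 (SE, adjusted p = 0.000206) in PL vs MG and 2.67 ± 0.28 (adjusted p = 0.000116) in W2 vs PL. Of the 5 repressors of E2F targets, only RBL1 passed the test in PL vs MG, where it fell, and in W2 vs PL, where it rose.

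Most fibroblast markers moved with the same stages, and the counts of the other cell types were mixed. Of all features, 23% fell from MG to PL and 30.4% rose from PL to W2. Of 6 fibroblast markers, 5 fell from MG to PL and 5 rose from PL to W2, and their summed level was 1541 to 2336 units in MG, 472 to 1087 in PL and 1401 to 2632 in W2. Of 7 lymphocyte markers in the table, 3 fell and 2 rose, with sums of 692 to 2878 units in MG, 727 to 901 in PL and 393 to 810 in W2. Their sum in W2 was thus not above that in PL. None of the 7 luminal epithelial markers passed the test in PL vs MG and 2 rose from PL to W2, with sums of 1371 to 1868, 863 to 1788 and 1515 to 2041 units. None of 6 basal and myoepithelial markers passed in either comparison, with sums of 1408 to 1530, 786 to 1952 and 1407 to 1677 units. Of 5 endothelial markers 1 fell and 2 rose, and their sums were 122 to 176 units in MG, 75.1 to 124 in PL and 125 to 139 in W2. Of 5 macrophage markers, CD14 rose from MG to PL and AIF1 and CSF1R fell, and of 4 adipocyte markers, LEP rose and FABP4 fell. The summed levels of the macrophage markers were 58.6 to 72.6 units in MG, 35.6 to 317 in PL and 67.0 to 80.4 in W2, and those of the adipocyte markers 598 to 1270, 310 to 876 and 581 to 914. Of 6 milk genes, 5 rose from MG to PL and all 6 fell from PL to W2. The part of these cell types and of the milk transcripts in the levels of the division genes was not tested.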

How the data were processed

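Mammary RNA of 30 sows (5 stages of 6) was sequenced from poly-A libraries. The authors trimmed reads with Trimmomatic, aligned them to Sscrofa11.1 with HISAT2, quantified transcripts with StringTie, dropped transcripts that stayed under an FPKM of 0.5 at every stage, and named RUVs as a correction, which the deposited values may or may not include. The deposited values of 61773 transcripts are called FPKM by the authors but add up as TPM does (997480 to 1002643 per sample) and were treated as TPM. The table gives no reads, so depth per value is unknown and precision rests on the spread between samples.

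Transcripts were added per gene by RefSeq symbol, and assembled transcripts stayed as 11061 loci of their own. Samples were near copies where every pair differed by a median below 5% over transcripts of at least 10 units and their mean matched that of the others within 5%. log2(units + 0.5) was tested in limma 3.58.1 (R 4.3.3) with trended variance and the 5 stages in a single fit, with adjustment over all 26012 features. Summaries and plots used Python 3.11.15, numpy 2.4.6, pandas 2.3.3 and matplotlib 3.10.9. The procedure was tested on simulated data. Fold changes with adjusted p are given for at most 8 members per comparison with the lowest adjusted p, for TOP2A, MKI67, CCNB1, CDCA8 and UNG, for MCM2 to MCM7 in PL vs MG, for 6 control genes and for at most 4 further pathway genes per comparison. Of these, UNG, MCM4, MCM5, ORC1, E2F1 and CDKN1A have only the adjusted p in the Results. The adjusted p of AURKB, KIF23, SPC25 and PCNA and the level of PLK1 were added after their values were seen. The members and lists were chosen with earlier results of these data known. Neither sample records nor the study name a sequencing batch, so no value within batches is given. Alternatives were other pseudocounts, a filter, quantile and median ratio scaling, all 6 samples, the near copies as 1 further sample, the replicate number as a block, the compared stages alone, the highest transcript, reference genes alone, the study's fold limit and each sample left out.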

Additional observations from a re-analysis of the deposited data

How the results depend on the processing

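The number of genes called in PL vs MG (44), W2 vs PL (42) and among the 5 stages (38) stayed within 1.5 times under every alternative run. Apart from the study's fold limit, the share of all features called under each alternative is not given. Leaving out each counted sample in turn gave 40 to 45 in PL vs MG, 40 to 44 in W2 vs PL, 37 to 40 among the 5 stages, 23 to 36 in PL vs EL, with the lowest value without EL 3, and 0 in LG vs MG, EL vs LG and W2 vs MG. In PL vs EL, 35 became 2 with the compared stages alone, where fewer samples estimate the spread, and 11 with the study's fold limit. Counting all 6 samples per stage, which treats near copies as sows, gave 30 in LG vs MG, 5 in EL vs LG and 2 in W2 vs MG, and the mean of the near copies as 1 further sample gave 1 in LG vs MG and 1 in EL vs LG.

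The replicate numbers did not pair the sows. Deviations of same-numbered samples correlated between −0.0993 and 0.137, with 5 of 19 pairs over 0.1, against −0.108 to 0.182 and 14 of 71 for different numbers. With the replicate block 11 genes were called in PL vs EL, 38 in PL vs MG and 42 in W2 vs PL.

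Of 1531 alternative values of 59 named fold changes, 1475 kept direction and side of the threshold and 14 turned, none of which was called in the main setting. MKI67 in W2 vs PL turned to −0.59 with quantile normalization, −0.36 with median ratio scaling, −0.25 with all 6 samples, −0.11 with the near copies as 1 further sample, −0.73 with the highest transcript, −0.24 without PL 6 and −0.11 without W2 2. MKI67 in PL vs MG turned to 0.10 with quantile normalization and 0.36 with the highest transcript. CDKN1B turned in W2 vs PL to −0.023 and −0.088, and in PL vs MG to 0.20 and 0.29, with quantile normalization and median ratio scaling. MCM4 in PL vs MG ranged from −0.63 to 0.41 when samples were left out singly, and turned without MG 3. The causes were not tested. The files give no reads per value, so the counting error of the low levels of MCM4, MCM5, PLK1, CDC6 and MKI67 is unknown.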
